A study of Saccharomyces cerevisiae with 8 samples.

Results

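The genes described here are the 137 nuclear genes that encode the proteins of the cytosolic ribosome of budding yeast, Saccharomyces cerevisiae. They were chosen by name alone, as protein-coding genes of the R64 annotation whose symbol is RPL or RPS with a number and an optional A or B, or one of RPP0, RPP1A, RPP1B, RPP2A and RPP2B. They are 137 of 6002 nuclear protein-coding genes. Of these, 76 encode proteins of the large subunit, 56 encode proteins of the small subunit, and 5 encode the acidic stalk of the large subunit, which recruits translation factors. The list holds 57 pairs of A and B copies left from the ancient genome duplication, and 23 genes without such a copy.

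Peak lists came from 4 strains, each with 1 Flag ChIP library and 1 input library, so there were 8 libraries and no replicates. In all 4 strains the endogenous CSE4 gene was deleted, and a 3Flag-tagged CSE4 at the URA3 locus was driven by its own promoter. The strains psh1 pGAL-3Flag-CSE4 and pGAL-3Flag-CSE4 carried a further tagged copy behind the galactose-inducible GAL promoter. The strains psh1 3Flag-CSE4 and 3Flag-CSE4 lacked that copy, and psh1 marks deletion of the PSH1 gene. All cultures were asynchronous, were grown in lactic acid medium, and received 2% galactose for 2 h before crosslinking. Chromatin was cut with micrococcal nuclease (MNase), which digests the linker DNA between nucleosomes, so input peaks map nucleosomes and ChIP peaks map nucleosomes that carry Cse4. The comparison asks where Cse4 that exceeds its normal level enters chromatin at these genes, with and without Psh1.

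Cse4 is the budding yeast CENP-A, the histone H3 variant of the centromeric nucleosome, and Psh1 is the ubiquitin ligase that marks excess Cse4 for degradation. Ribosomal protein (RP) genes are among the most heavily transcribed genes of growing yeast, and Rap1, Fhl1, Ifh1 and Sfp1 act at many of their promoters. Rap1 binds upstream of the start and keeps a stretch of the promoter free of nucleosomes, while Fhl1 and Ifh1 join it there and couple transcription to growth signals.

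A peak was counted in a window when it shared at least 1 bp with it. The windows were the 500 bp upstream of the start of the reading frame, the gene from start to stop with its introns, and the 500 bp downstream of the stop. The other 5865 protein-coding genes were the comparison. Because the RP genes were short, with a median span of 771 bp against 1230 bp for the other genes, 1958 other genes with spans of 360 to 1041 bp were used as genes of like length. Intervals in parentheses after a share are 95% Wilson intervals. They cover counting error over genes only, and genes are not replicates of a strain, so no test between strains was possible.

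The deposited lists held 14199 ChIP peaks in psh1 pGAL-3Flag-CSE4, 4043 in pGAL-3Flag-CSE4, 66 in psh1 3Flag-CSE4 and 17 in 3Flag-CSE4. The input lists held 18908, 39937, 31268 and 40108 peaks in the same order of strains. Input peaks covered 0% of the PSH1 gene in both psh1 strains, against 44.9% in pGAL-3Flag-CSE4 and 55.5% in 3Flag-CSE4, as the labels state. The lists carry no peak height, and read depth is unknown from them. Chromosome XI stood apart in both psh1 strains. ChIP peaks covered 24.9% of it and 15.1% of the other chromosomes in psh1 pGAL-3Flag-CSE4, and 0.196% and 0.0495% in psh1 3Flag-CSE4. The ChIP shares in pGAL-3Flag-CSE4 were 2.96% and 2.78%. The input lists differed more. In psh1 pGAL-3Flag-CSE4, 53.5% of chromosome XI and 10.9% of the other chromosomes lay under input peaks. In psh1 3Flag-CSE4 the shares were 67.7% and 20.8%, while in pGAL-3Flag-CSE4 and in 3Flag-CSE4 chromosome XI (35.5% and 35.9%) was close to the other chromosomes (32.8% and 33.2%). Only 5 RP genes lie on chromosome XI, and without them the shares with a ChIP peak in psh1 pGAL-3Flag-CSE4 were 90.9% upstream, 37.9% in the gene and 94.7% downstream.

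In both overexpressing strains, the share with a Cse4 peak was higher at RP genes than at other genes in the downstream window and lower in the gene, and in pGAL-3Flag-CSE4 it was also lower upstream. In psh1 pGAL-3Flag-CSE4, 130 RP genes had a ChIP peak downstream, which is 94.9% (89.8 to 97.5%), against 79.1% of other genes and 75.8% of genes of like length. The share over all protein-coding genes was 79.4%. The peaks also covered more of this window, with a mean of 40.6% of its bases at RP genes and 31.8% at other genes. In pGAL-3Flag-CSE4, 94 RP genes had a downstream peak, or 68.6% (60.4 to 75.8%), against 40.6% of other genes, 33.8% of genes of like length and 41.3% of all protein-coding genes. Mean downstream coverage in that strain was 15.3% at RP genes and 8.18% at other genes.

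Upstream, the 2 overexpressing strains differed in how far the RP genes stood from the rest. In psh1 pGAL-3Flag-CSE4, 125 RP genes had an upstream ChIP peak, or 91.2% (85.3 to 94.9%), against 94.3% of other genes and 94.2% of all protein-coding genes. This difference of -3.03 percentage points had an interval that included 0 (-8.98 to 0.70), whereas 7 of 11 alternative settings gave intervals below 0, with -10.2 points at 50 bp of overlap. The peaks covered less of the window, with a mean of 25.8% of bases at RP genes against 45.6% at other genes and 44.5% at genes of like length. In pGAL-3Flag-CSE4 only 18 RP genes had an upstream peak, or 13.1% (8.48 to 19.8%), against 49.9% of other genes, 50.1% of genes of like length and 49.1% of all protein-coding genes. The RP share was 2.19% in windows of 250 bp and 8.03% for peaks at least 71 bp wide. Mean upstream coverage was 1.81% at RP genes and 8.48% at other genes in pGAL-3Flag-CSE4.

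Within the gene, 55 RP genes had a ChIP peak in psh1 pGAL-3Flag-CSE4, or 40.1% (32.3 to 48.5%), against 75.6% of other genes, 78.3% of genes of like length and 74.8% of all protein-coding genes. The RP share was 17.5% when an overlap of at least 50 bp was required, 25.5% for peak centres in the gene and 24.1% for peaks at least 71 bp wide. In pGAL-3Flag-CSE4 no RP gene had a peak in the gene, or 0 of 137 (0 to 2.73%), whereas 22.5% of other genes and 22.0% of all protein-coding genes did. The difference of -22.5 points was -8.49 at 50 bp of overlap and -13.2 for peak centres or peaks at least 71 bp wide. The RP genes were therefore poor in Cse4 peaks inside the gene in both strains by count, and rich in them past the stop.

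**Figure D1:**
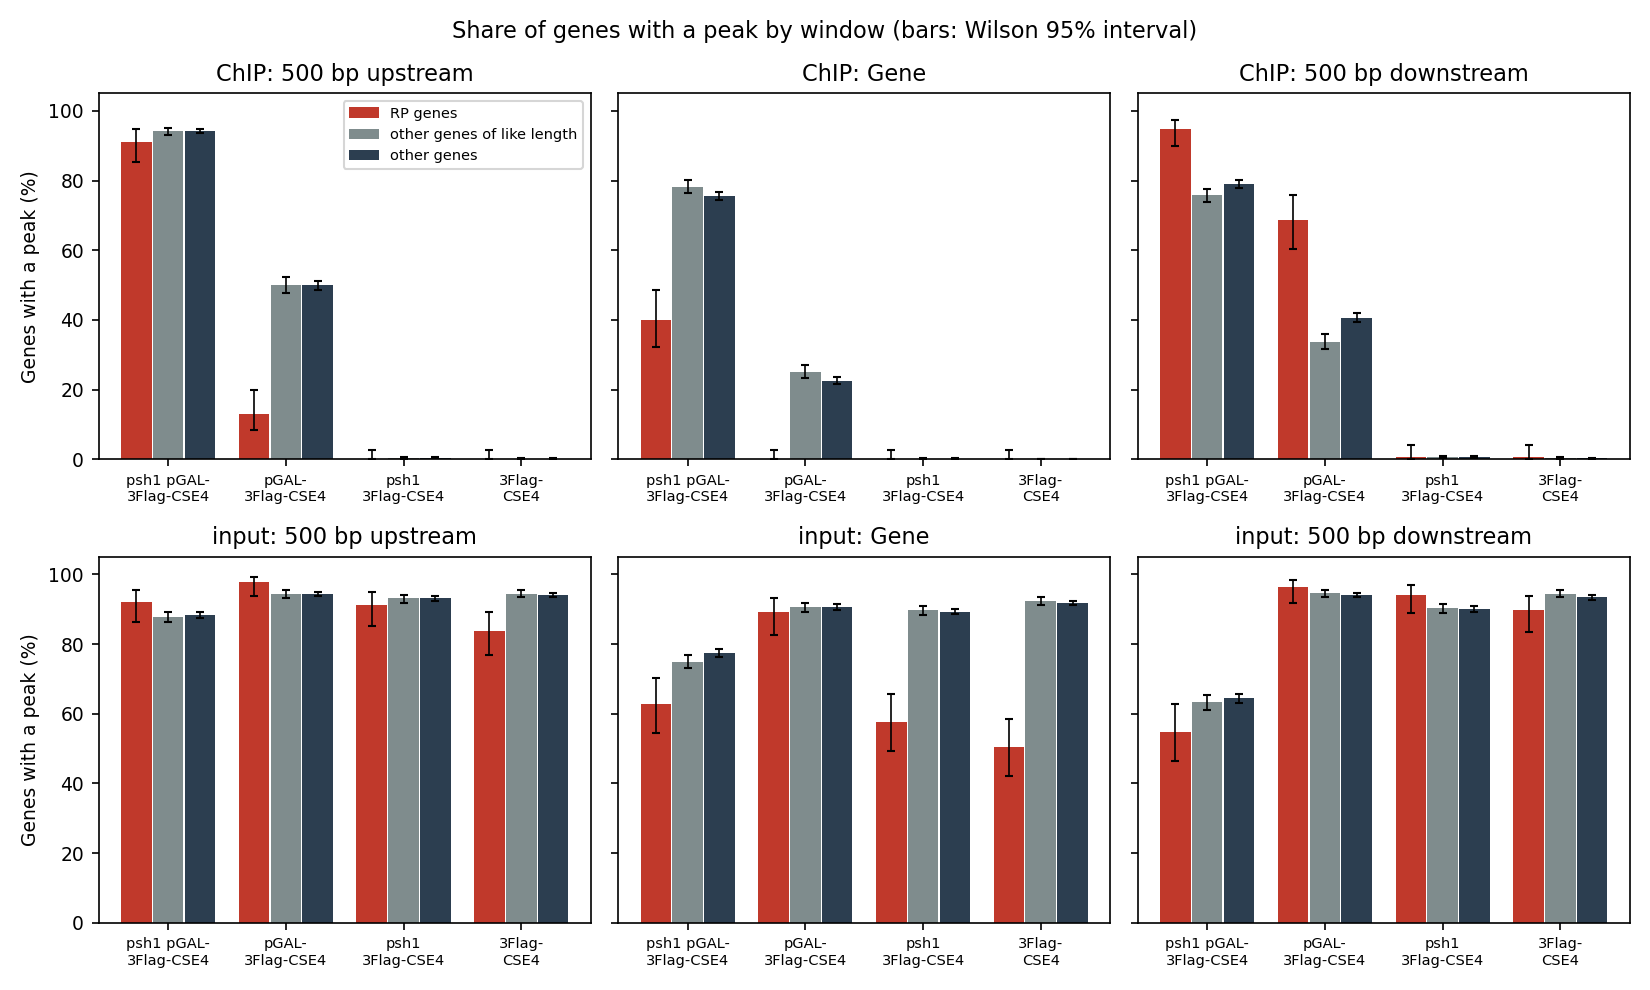
Share of genes with a peak (%, vertical axis) in the upstream, gene and downstream windows, for ribosomal protein genes, genes of like length and all other genes, with a panel for each window (ChIP above, input below) and the 4 strains along each horizontal axis. Error bars are 95% Wilson intervals over genes. In pGAL-3Flag-CSE4 ChIP, RP genes stand at 13.1% upstream, 0% in the gene and 68.6% downstream, against 49.9%, 22.5% and 40.6% of other genes.

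Without the GAL copy, 1 RP gene carried ChIP peaks. This was RPL14B (chrVIII:104277-105091, plus strand in R64), which encodes a large-subunit protein and lies 495 bp from the centromere of its chromosome. Its downstream window had 78.4% of bases under peaks in psh1 pGAL-3Flag-CSE4, 34.6% in pGAL-3Flag-CSE4, 36.6% in psh1 3Flag-CSE4 and 0.400% in 3Flag-CSE4. The window reached the centromere, and its coverage was highest in psh1 pGAL-3Flag-CSE4 and lowest in 3Flag-CSE4. The other 136 RP genes had no ChIP peak in any window in psh1 3Flag-CSE4 or in 3Flag-CSE4. Over all protein-coding genes the shares with a peak were 0.333% upstream, 0.167% in the gene and 0.616% downstream in psh1 3Flag-CSE4, and 0.117%, 0% and 0.250% in 3Flag-CSE4.

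Between the overexpressing strains, the RP genes with peaks in pGAL-3Flag-CSE4 were nested within those of psh1 pGAL-3Flag-CSE4. The same held for nearly all genes, since only 1, 2 and 6 of the 6002 had a peak in pGAL-3Flag-CSE4 alone upstream, in the gene and downstream. Upstream, 107 RP genes, or 78.1%, had a peak in psh1 pGAL-3Flag-CSE4 and none in pGAL-3Flag-CSE4, against 45.1% of all protein-coding genes. A further 18, or 13.1%, had one in both strains, against 49.1% of all protein-coding genes, and 12 had one in neither. In the gene 55, or 40.1%, had a peak in psh1 pGAL-3Flag-CSE4 alone, against 52.8% of all protein-coding genes. Downstream only 36, or 26.3%, did so, against 38.3% of all protein-coding genes. There 94, or 68.6%, had a peak in both strains, against 41.2% of all protein-coding genes. The 110 distinct downstream peaks of RP genes in pGAL-3Flag-CSE4 all overlapped a peak of psh1 pGAL-3Flag-CSE4, while 101 of the 179 downstream peaks in psh1 pGAL-3Flag-CSE4, or 56.4%, overlapped a peak of pGAL-3Flag-CSE4. These peak overlaps were not counted at other genes, so they do not set the RP genes apart.

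The share of RP genes under an upstream peak varied with distance from the start. In psh1 pGAL-3Flag-CSE4 the share of RP genes under a ChIP peak was highest 160 bp before the start, at 58.4%, and had a second maximum of 37.2% at the start itself. Between these, 80 bp before the start, it was 7.30%, and on the far side, 280 bp before the start, it was also 7.30%. At other genes in this strain the profile lacked these gaps. There, 60.3% were under a peak 220 bp before the start, 53.5% at 90 bp before it and 58.5% at 20 bp before it. At 100 bp into the gene the share at RP genes was 0%. In pGAL-3Flag-CSE4 no RP gene was under a ChIP peak at any 10 bp step from 110 bp before the start onward into the gene, and the highest share, 5.84%, lay 470 bp upstream. Other genes in pGAL-3Flag-CSE4 reached 16.8% at 10 bp before the start and 14.3% at 220 bp before it. Between these they fell to 6.41% at 90 bp before the start, so a dip was present at other genes in that strain.

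Input nucleosome peaks were present at the RP start in every strain, including pGAL-3Flag-CSE4, which had no Cse4 peak there. At the start, 62.0% of RP genes were under an input peak in psh1 pGAL-3Flag-CSE4 against 49.0% of other genes, 76.6% against 63.5% in pGAL-3Flag-CSE4, and 51.8% against 57.4% in psh1 3Flag-CSE4. In 3Flag-CSE4 the shares were 34.3% at RP genes and 60.8% at other genes. At 80 bp before the start, by contrast, only 1.46%, 10.2%, 3.65% and 2.19% of RP genes were under an input peak in psh1 pGAL-3Flag-CSE4, pGAL-3Flag-CSE4, psh1 3Flag-CSE4 and 3Flag-CSE4, against 19.4%, 31.0%, 23.1% and 24% of other genes. The gap before the RP start was thus seen in all 4 inputs as well as in psh1 pGAL-3Flag-CSE4 ChIP. Other genes also had lower input shares at 80 bp before the start than at the start in all 4 inputs. Their shares at 80 bp stayed above those of RP genes.

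**Figure D2:**
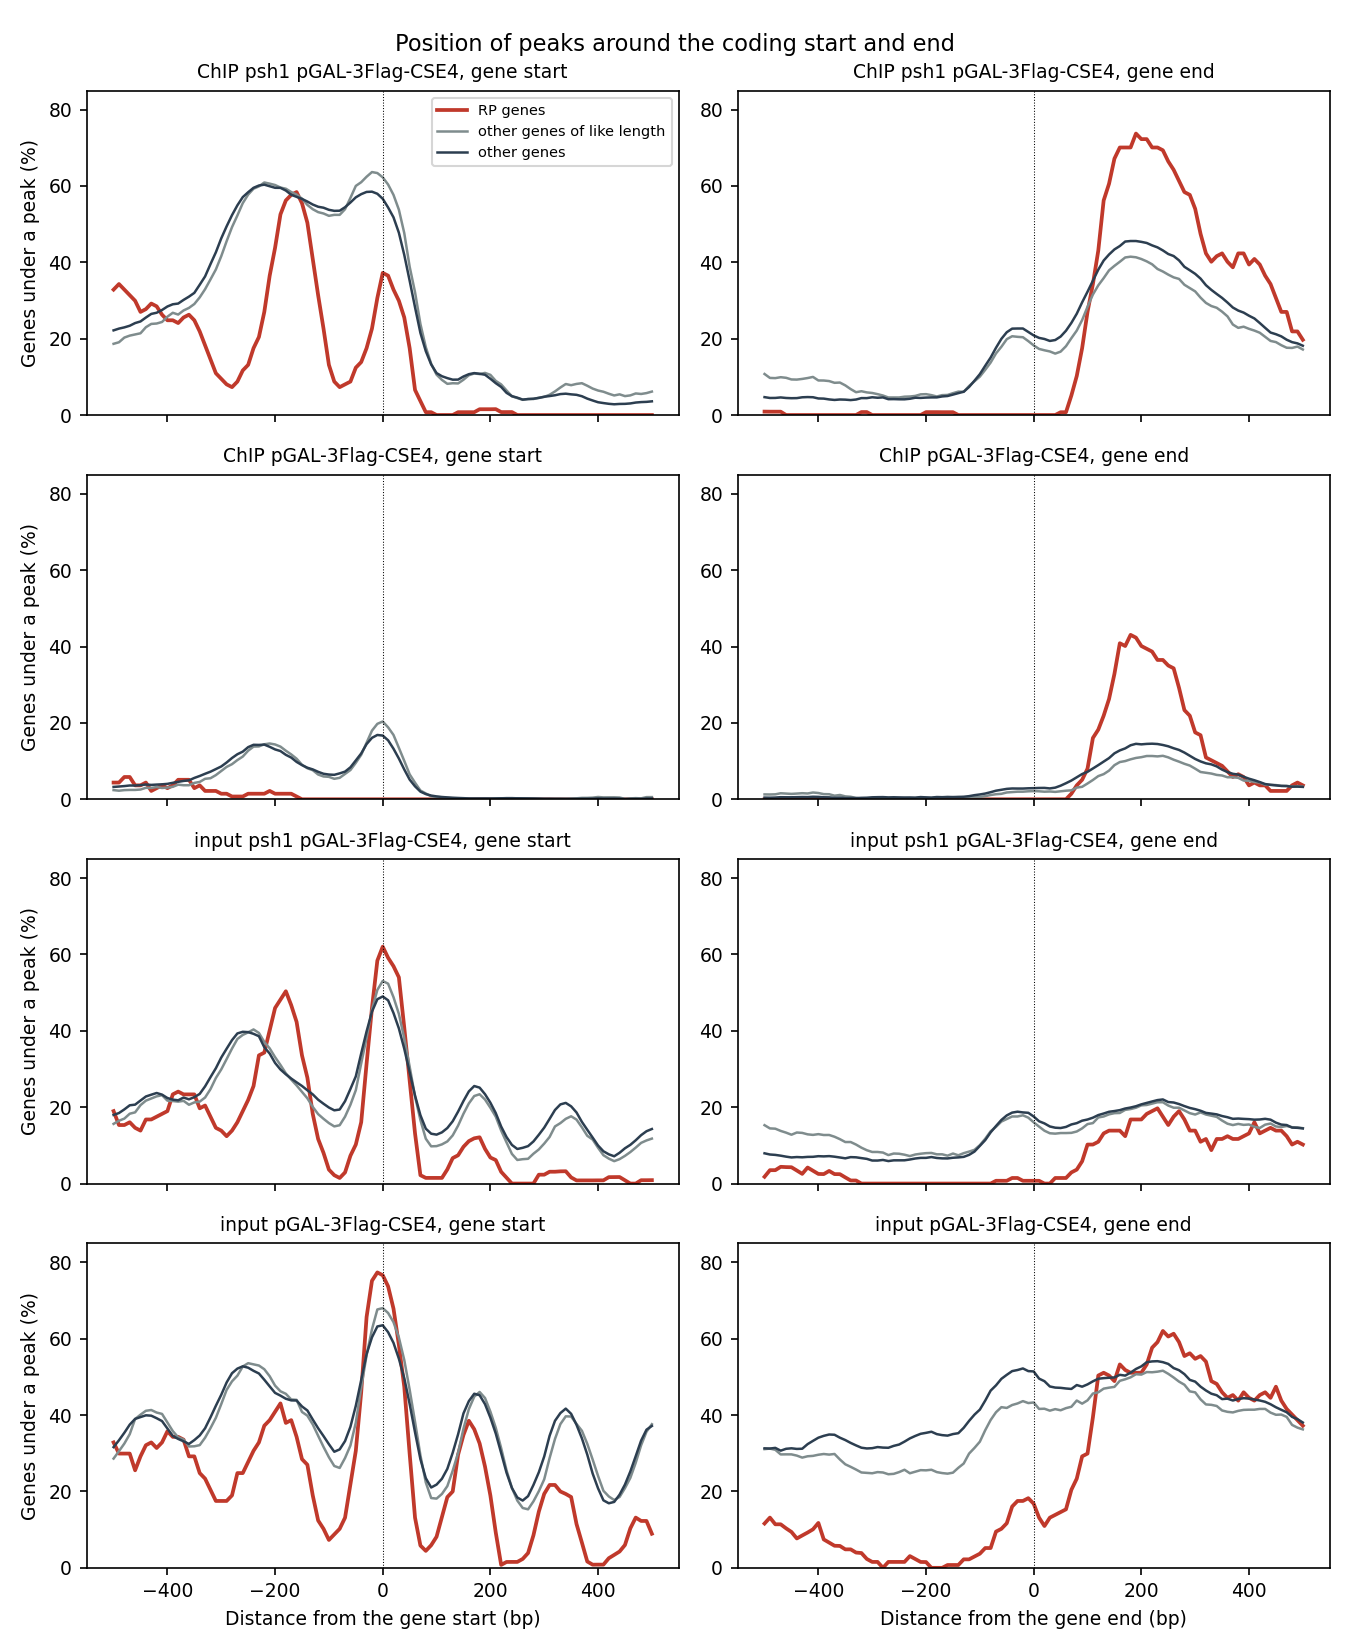
Share of genes under a peak (%, vertical axis) in steps of 10 bp against distance in bp from the start and from the stop of the reading frame, for ribosomal protein genes, genes of like length and other genes (lines), in ChIP and input of the overexpressing strains. In psh1 pGAL-3Flag-CSE4 ChIP, RP genes show maxima of 58.4% at 160 bp before the start and 73.7% at 190 bp past the stop, and a share of 0% at the stop.

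The 6 RP genes with the most upstream coverage in psh1 pGAL-3Flag-CSE4 were RPL18B at 68.0% of bases, the stalk gene RPP1A at 65.8%, RPS27A at 62.8%, RPL15B and RPL40B at 62.4% each, and RPL4B at 62.2%. RPL40B encodes a fusion of ubiquitin to a large-subunit protein, and it and RPS27A lie on chromosome XI. ChIP peaks of psh1 pGAL-3Flag-CSE4 covered more of this chromosome than of the others. Of these 6 only RPL15B also had upstream peaks in pGAL-3Flag-CSE4. The stalk genes spanned much of the range among themselves. RPP0, which encodes the core of the stalk, had 38.4% of its upstream window under peaks in psh1 pGAL-3Flag-CSE4. For the acidic proteins that bind it, the values were 65.8% at RPP1A, 12.2% at RPP1B, 29.0% at RPP2A and 50.2% at RPP2B. In pGAL-3Flag-CSE4 only RPP2A had upstream coverage among the 5 stalk genes, at 6.80%, from a peak in the promoter it shares with RPS15 on the opposite strand.

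The 12 RP genes without an upstream peak in psh1 pGAL-3Flag-CSE4 were RPL11B, RPL1B, RPL24A, RPL24B, RPL6A, RPL9A, RPS22B, RPS25B, RPS26A, RPS29A, RPS29B and RPS8A. All 12 had a downstream peak in that strain, with 18.2% to 76.8% of the window covered. This was near the share of 94.9% over all RP genes. No intron was present in 10 of the 12, against 48 of all 137 RP genes. By input, 8 of the 12 had an upstream nucleosome peak in psh1 pGAL-3Flag-CSE4, 11 in pGAL-3Flag-CSE4, and 7 in each of psh1 3Flag-CSE4 and 3Flag-CSE4. Over all RP genes the shares with an upstream input peak were 92%, 97.8%, 91.2% and 83.9% in the same order of strains. Chromosome VII held 6 of the 12 among its 14 RP genes, so that 57.1% of RP genes on it had an upstream peak, against 96.6% of the other genes on that chromosome. RPL24A, which encodes a large-subunit protein, had no upstream coverage in psh1 pGAL-3Flag-CSE4 ChIP and 76.8% downstream.

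In pGAL-3Flag-CSE4 the highest upstream coverage was 34% at RPL15B, 18.4% at RPL35B, 18.2% at RPL21B and at RPS15, and 16.2% at RPL15A and at RPL38. RPS15 encodes a small-subunit protein and the other 5 encode large-subunit proteins. The promoter sequences of the first 3 are shown because Cse4 peaks covered them most widely in pGAL-3Flag-CSE4, with RPS15 tied with RPL21B. Each runs 5′ to 3′ on the coding strand from 400 to 151 bp before the start, and capitals mark the bases under ChIP peaks of pGAL-3Flag-CSE4. The peaks covered 131, 92 and 91 of these 250 bases at RPL15B, RPL35B and RPL21B. Positions are in R64 (sacCer3): RPL15B at chrXIII:510499-510748 on the minus strand, RPL35B at chrIV:217200-217449 on the plus strand, and RPL21B at chrXVI:406236-406485 on the plus strand.
RPL15B: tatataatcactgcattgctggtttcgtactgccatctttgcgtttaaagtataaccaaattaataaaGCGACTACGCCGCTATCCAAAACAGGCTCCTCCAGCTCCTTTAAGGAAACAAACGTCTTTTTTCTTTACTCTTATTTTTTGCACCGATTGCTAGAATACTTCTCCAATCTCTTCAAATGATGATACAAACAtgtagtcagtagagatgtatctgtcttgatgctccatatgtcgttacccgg
RPL35B: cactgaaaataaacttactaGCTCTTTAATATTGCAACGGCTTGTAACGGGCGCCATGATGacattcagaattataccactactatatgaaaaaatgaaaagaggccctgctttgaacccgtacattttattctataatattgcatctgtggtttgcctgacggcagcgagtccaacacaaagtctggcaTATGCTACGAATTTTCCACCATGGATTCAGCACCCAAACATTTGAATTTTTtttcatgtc
RPL21B: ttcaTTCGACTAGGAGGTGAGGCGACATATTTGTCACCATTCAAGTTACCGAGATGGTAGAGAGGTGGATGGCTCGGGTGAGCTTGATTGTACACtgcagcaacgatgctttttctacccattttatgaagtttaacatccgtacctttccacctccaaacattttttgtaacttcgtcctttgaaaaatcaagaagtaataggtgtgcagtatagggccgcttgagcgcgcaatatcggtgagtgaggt

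RPL15B had 62.4% of its upstream window under ChIP peaks in psh1 pGAL-3Flag-CSE4, 34% in pGAL-3Flag-CSE4, and 0% in psh1 3Flag-CSE4 and in 3Flag-CSE4. Its upstream input coverage was 14.2%, 42.6%, 22.6% and 26.4% in psh1 pGAL-3Flag-CSE4, pGAL-3Flag-CSE4, psh1 3Flag-CSE4 and 3Flag-CSE4. The ChIP value was highest in psh1 pGAL-3Flag-CSE4, where the input value was lowest. The whole input list of that strain was also the shortest, at 18908 peaks. RPL15A, its paralog, had upstream ChIP coverage of 48.4% in psh1 pGAL-3Flag-CSE4 and 16.2% in pGAL-3Flag-CSE4.

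The Rap1 core, ACCCNNACA on either strand, was found in the 500 bp upstream of 54 RP genes, or 39.4% (31.6 to 47.8%), against 5.48% of all protein-coding genes. The RP windows held 58 distinct cores with a median distance of 318 bp from the start. In psh1 pGAL-3Flag-CSE4, 3 of the 58, or 5.17% (1.77 to 14.1%), had their centre under a ChIP peak, against 30.8% of the cores upstream of other genes. In pGAL-3Flag-CSE4 the shares were 1.72% and 5.0%. Input peaks covered 19.0% of RP cores in psh1 pGAL-3Flag-CSE4, 39.7% in pGAL-3Flag-CSE4, 27.6% in psh1 3Flag-CSE4 and 20.7% in 3Flag-CSE4, against 28.8%, 42.1%, 31.2% and 41.7% of the cores at other genes. The ChIP share at RP cores in psh1 pGAL-3Flag-CSE4 lay below the interval of the share at other genes (25.3 to 36.9%), while in pGAL-3Flag-CSE4 the intervals overlapped (0.305 to 9.14% at RP genes and 2.88 to 8.53% at other genes).

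Around the cores, Cse4 peaks stood on both sides. Counting each core once for each RP gene it precedes gave 62, and in psh1 pGAL-3Flag-CSE4 the share under a ChIP peak was 4.84% at the core, 61.3% at 130 bp on the side away from the gene and 48.4% at 220 bp on the side towards it. Around 289 cores of other genes the shares were 30.4% at the core, 46.4% at 110 bp away from the gene and 56.4% at 130 bp towards it. In the 3Flag-CSE4 input, RP cores had 19.4% at the core, 1.61% at 60 bp away from the gene and a maximum of 54.8% at 190 bp away from it.

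**Figure D3:**
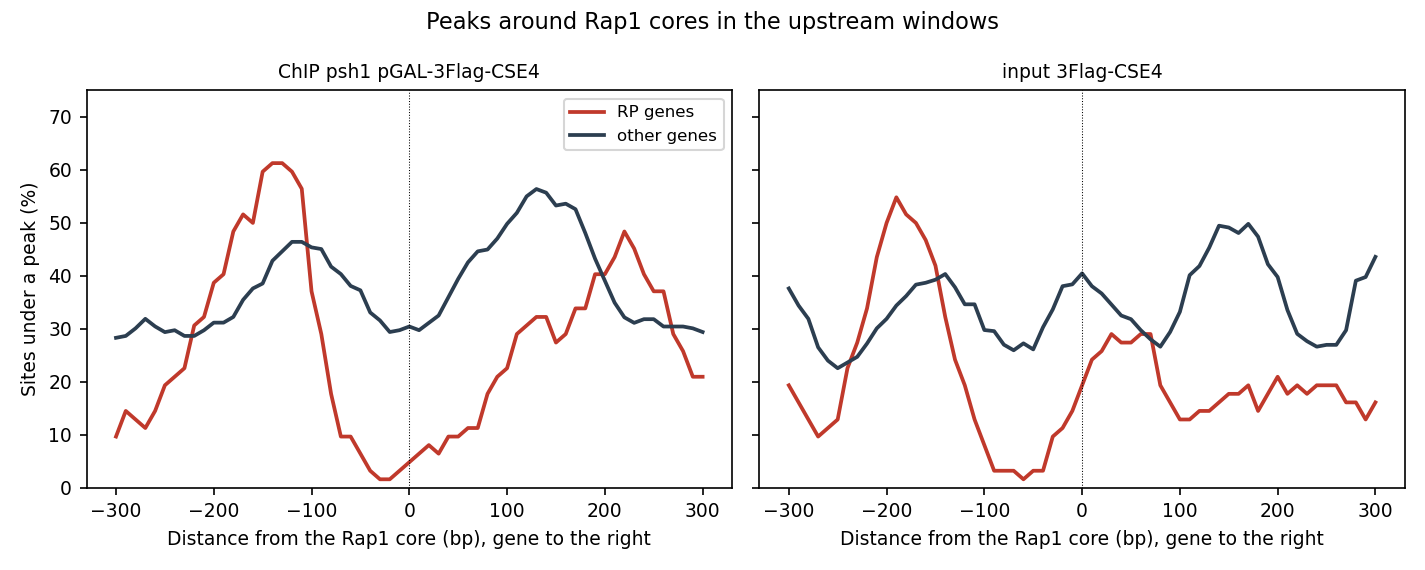
Share of Rap1 cores under a peak (%, vertical axis) against distance in bp from the core, oriented so that the gene lies to the right, for 62 cores of ribosomal protein genes and 289 cores of other genes, with psh1 pGAL-3Flag-CSE4 ChIP on the left and 3Flag-CSE4 input on the right. In psh1 pGAL-3Flag-CSE4 ChIP the RP line stands at 4.84% at the core and 61.3% at 130 bp away from the gene.

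The promoter of the stalk gene RPP1B is shown as an example of an RP promoter with a core and no Cse4 peak over it, with 100 bp on each side, 5′ to 3′ on the coding strand, and capitals mark the Rap1 core. The core lay 270 bp before the start (chrIV:229532-229740, plus strand, R64), and the nearest psh1 pGAL-3Flag-CSE4 ChIP peak was 180 bp from it on the gene side, with none on the far side within the upstream window.
RPP1B: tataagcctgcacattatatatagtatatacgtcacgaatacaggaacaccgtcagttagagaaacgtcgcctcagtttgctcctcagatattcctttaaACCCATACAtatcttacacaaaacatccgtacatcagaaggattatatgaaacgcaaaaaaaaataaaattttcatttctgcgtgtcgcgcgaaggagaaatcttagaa

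RP genes with and without a core were close in upstream coverage. In psh1 pGAL-3Flag-CSE4, mean upstream coverage was 25.7% at RP genes with a core and 25.8% at those without one, and 94.4% and 89.2% of them had an upstream peak. The Fhl1 core, GACGC, was upstream of 43.1% of RP genes against 30.4% of all protein-coding genes, and 31.8% of its RP sites were under a psh1 pGAL-3Flag-CSE4 peak against 43.8% at other genes. Runs of 8 T or 8 A, AAAATTTT (the RRPE core) and GATGAG (the PAC core) were upstream of 50.4%, 12.4% and 21.9% of RP genes, against 44.2%, 12.4% and 28.2% of all protein-coding genes. Their RP sites were under a psh1 pGAL-3Flag-CSE4 peak in 29.9%, 22.2% and 36.4% of cases, against 50.9%, 49.1% and 45.9% at other genes. Searches covered both strands, overlapping matches were counted, and a match is not evidence of binding. The lack of a match to the fixed letters is not evidence that a site is absent, so RP genes without a core may still hold Rap1 sites.

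The longest stretch of the upstream window without a peak was longer at RP genes than at other genes in psh1 pGAL-3Flag-CSE4 ChIP and in all 4 inputs. In psh1 pGAL-3Flag-CSE4 ChIP its median was 269 bp at RP genes and 179 bp at other genes, while in pGAL-3Flag-CSE4 ChIP it was the whole window of 500 bp in both sets. In the inputs the RP medians were 268 bp in psh1 pGAL-3Flag-CSE4, 229 bp in pGAL-3Flag-CSE4, 274 bp in psh1 3Flag-CSE4 and 278 bp in 3Flag-CSE4, against 209, 139, 189 and 169 bp at other genes. Mean upstream ChIP coverage at RP genes was 0.564 times that of other genes in psh1 pGAL-3Flag-CSE4. It was 0.214 times in pGAL-3Flag-CSE4, where the RP input median was the shorter of the 2. The part of the input stretches in the lower upstream ChIP coverage was not tested.

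Measured per nucleosome, RP promoters in pGAL-3Flag-CSE4 still held few Cse4 peaks. Of 229 input nucleosome peaks centred in RP upstream windows of that strain, 13 were overlapped by its ChIP peaks, or 5.68%, against 22.8% at other genes. Within the gene 0 of 203 were overlapped, against 3.91%, and downstream 107 of 274 were, or 39.1%, against 22.4%. In psh1 pGAL-3Flag-CSE4 the shares were 70.7% upstream, 41.1% in the gene and 87.8% downstream at RP genes, against 82.1%, 43.3% and 80.7% at other genes. At genes of like length the share in the gene was higher, at 55.7% in psh1 pGAL-3Flag-CSE4 and 7.53% in pGAL-3Flag-CSE4. Downstream of RP genes in psh1 pGAL-3Flag-CSE4, only 84 of 169 ChIP peaks, or 49.7%, overlapped an input peak of the same strain, against 71.7% at other genes. In pGAL-3Flag-CSE4 95.3% did so, against 97.1% at other genes.

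Inside RP genes, Cse4 peaks lay at the start, with 2 exceptions. Among the 132 RP genes longer than 200 bp, 55 had a ChIP peak within the first 100 bp in psh1 pGAL-3Flag-CSE4, or 41.7%, against 65.7% of other genes and 70.6% of genes of like length. Beyond the first 100 bp only RPL14A and RPL40B had one, or 1.52% (0.416 to 5.36%), against 50.6% of other genes and 46.6% of genes of like length. Both lie on chromosome XI, and RPL14A lies 7409 bp from its centromere. In pGAL-3Flag-CSE4 no RP gene had a peak beyond the first 100 bp, against 6.08% of other genes. Input peaks were fewer there too than at other genes. The RP shares were 16.7% in psh1 pGAL-3Flag-CSE4, 63.6% in pGAL-3Flag-CSE4, 17.4% in psh1 3Flag-CSE4 and 24.2% in 3Flag-CSE4. Those of other genes were 65.0%, 87.1%, 85.5% and 90.2%. Mean input coverage of the gene was 0.468, 0.418, 0.174 and 0.125 times that of other genes in the same order of strains. These input values were lower at RP genes than at other genes, as the ChIP values were. Over the whole gene in pGAL-3Flag-CSE4, however, 89.1% of RP genes and 90.7% of other genes had an input peak. The RP input share beyond the first 100 bp was also highest in that strain, where no RP gene had a ChIP peak. The part of input in the ChIP result was not tested.

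Gene coverage in psh1 pGAL-3Flag-CSE4 was highest at RPS28A, with 28.4% of its 204 bp, where 1 peak of 71 bp reached across the start. RPL14A followed with 17.9%, RPL40B with 16.2%, RPS21A with 12.6%, RPL36A with 9.92% and RPS27A with 9.67%. RPL14A, RPL40B, RPS21A and RPS27A lie on chromosome XI. All 5 RP genes of that chromosome had a peak in the gene, against 40.1% of all RP genes. Their mean gene coverage was 12.2% in ChIP and 22.0% in input of psh1 pGAL-3Flag-CSE4, against 2.48% and 5.55% over all RP genes. In that strain ChIP peaks covered 24.9% of the whole of chromosome XI and 15.1% of the other chromosomes. Input peaks covered 53.5% and 10.9%. In pGAL-3Flag-CSE4 all 137 RP genes had 0% of the gene under ChIP peaks.

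Of the RP genes, 114 have a paralog, and reads of 24 bases that match several places can lose mapping score, so repeats were set beside the shares. In psh1 pGAL-3Flag-CSE4, a ChIP peak was found upstream of 92.1% of the 63 RP genes with at most 10% of repeated 24-base words and 90.5% of the 74 with more, in the gene of 36.5% and 43.2% of them, and downstream of 96.8% and 93.2% of them. The part of repeats in the result was not tested. Among other genes, the upstream shares were 97.8% with few repeats and 44.4% with more. The split was by words in the gene, and the upstream windows of the sets were unlike. Repeated words there averaged 0.0918% at RP genes and 4.36% at other genes.

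**Figure D4:**
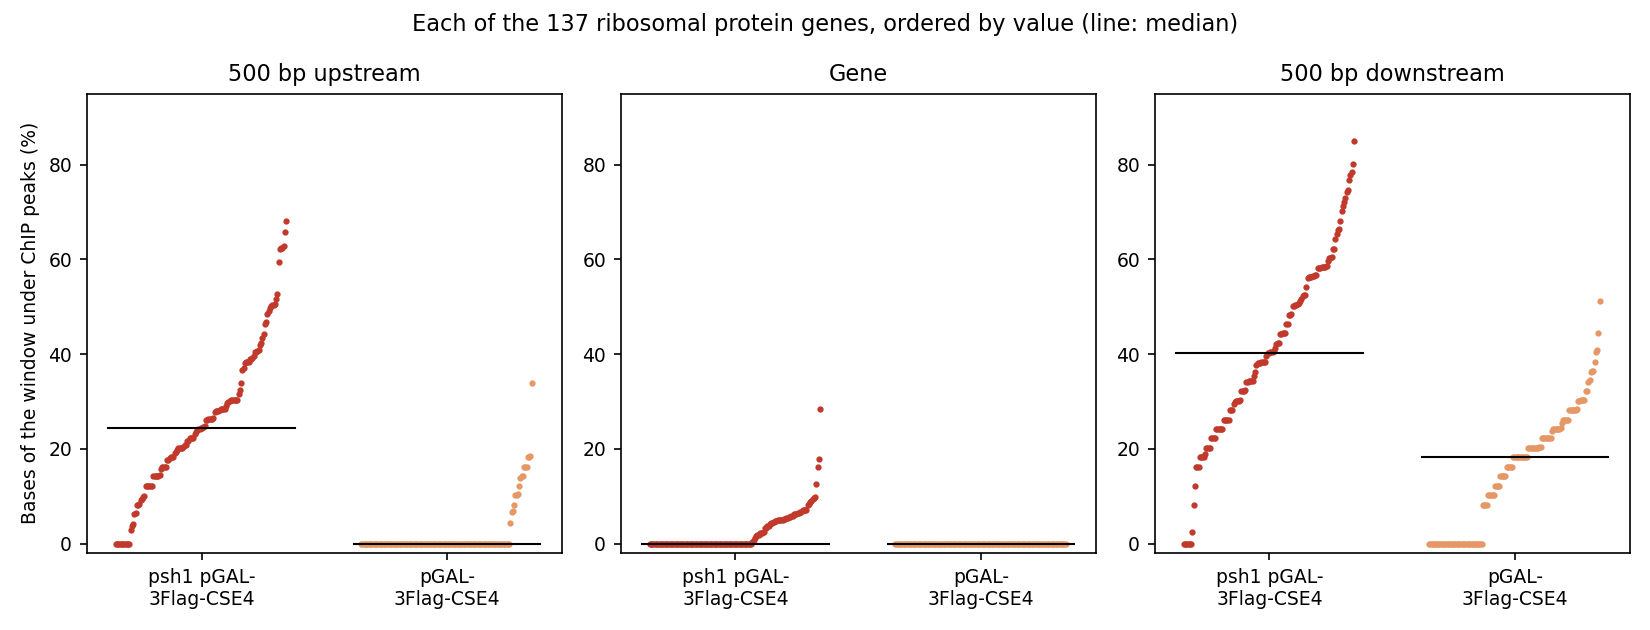
Percent of bases under ChIP peaks for each of the 137 ribosomal protein genes (points) in the upstream, gene and downstream windows of psh1 pGAL-3Flag-CSE4 and pGAL-3Flag-CSE4, ordered by value within each strain, with a line at the median. Downstream values reach 85% in psh1 pGAL-3Flag-CSE4 and 51.2% in pGAL-3Flag-CSE4, and all gene values are 0% in pGAL-3Flag-CSE4.

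Past the stop, the distance to the centre of the first Cse4 peak was measured. In psh1 pGAL-3Flag-CSE4 the median distance was 218 bp at RP genes (quartiles 178 to 264 bp) and 182 bp at other genes (121 to 246 bp). The median width of this peak was 161 bp at RP genes and 121 bp at other genes. In pGAL-3Flag-CSE4 the distances were 208 bp at RP genes (166 to 238 bp) and 217 bp at other genes (154 to 289 bp). The widths there were 101 and 81 bp. At 180 to 190 bp past the stop, up to 73.7% of RP genes were under a ChIP peak in psh1 pGAL-3Flag-CSE4 and 43.1% in pGAL-3Flag-CSE4, against 45.6% and 14.2% of other genes. At 180 bp the input shares at RP genes were at or below those of other genes. Input peaks there covered 16.8%, 51.1%, 26.3% and 32.1% of RP genes in psh1 pGAL-3Flag-CSE4, pGAL-3Flag-CSE4, psh1 3Flag-CSE4 and 3Flag-CSE4, against 19.9%, 51.1%, 34.1% and 38.6% of other genes. At 240 bp, where 69.3% of RP genes in psh1 pGAL-3Flag-CSE4 and 36.5% in pGAL-3Flag-CSE4 were under a ChIP peak against 43.1% and 14.2% of other genes, the input shares at RP genes were higher in pGAL-3Flag-CSE4 (62.0% against 53.9%) and psh1 3Flag-CSE4 (42.3% against 37.6%). They were lower in psh1 pGAL-3Flag-CSE4 (17.5% against 22.0%) and 3Flag-CSE4 (41.6% against 46.2%).

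A downstream window can reach into the promoter of the next gene, so the peaks before the next gene were counted by its direction. Where the next gene converged on the RP gene, so that the region held no promoter of either, 60 of 70 RP genes, or 85.7%, had a peak in psh1 pGAL-3Flag-CSE4, against 54.4% of other genes and 48.3% of genes of like length. In pGAL-3Flag-CSE4 42 of 70 had one, against 23.2% and 17.9%. The gap to the next gene was longer at RP genes, with a median of 350 bp against 290 bp at other genes. Among convergent genes with a gap of at least 300 bp the shares in psh1 pGAL-3Flag-CSE4 were 94.1% at RP genes and 81.7% at other genes, and in pGAL-3Flag-CSE4 79.4% (27 of 34) and 49.6%. Where the next gene lay in tandem, 95.5% of RP genes had a peak in psh1 pGAL-3Flag-CSE4 against 89.8% of other genes, and 65.7% against 53.1% in pGAL-3Flag-CSE4. The difference was thus larger at convergent ends than at tandem ends in both strains, and it was smaller among genes with wide gaps.

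The genes named in this paragraph were chosen after their downstream values were seen. In psh1 pGAL-3Flag-CSE4 downstream coverage was highest at RPL4A with 85%, RPL23A with 80.2%, RPL14B with 78.4% and RPL30 with 77.8%. In pGAL-3Flag-CSE4 it was highest at RPL15A with 51.2%, RPS19A with 44.4% and RPS10A with 40.8%. Downstream of RPS10A, which encodes a small-subunit protein, coverage was 74.6% in psh1 pGAL-3Flag-CSE4 ChIP, so this gene was high in both strains. The 7 RP genes without a downstream peak in psh1 pGAL-3Flag-CSE4 were RPL11A, RPL12A, RPL31B, RPL35B, RPL8A, RPS28B and RPS31, of which RPS31 encodes a fusion of ubiquitin to a small-subunit protein. The downstream window of RPS28B had no peak in any of the 8 libraries, input included.

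RP genes with an intron differed from those without one upstream. In psh1 pGAL-3Flag-CSE4, 87 of 89 RP genes with an intron had an upstream ChIP peak, or 97.8% (92.2 to 99.4%), against 38 of 48 without one, or 79.2% (65.7 to 88.3%). Other genes had the opposite order, at 85.2% with an intron and 94.6% without. In pGAL-3Flag-CSE4 the RP shares were 10.1% with an intron (5.41 to 18.1%) and 18.8% without (10.2 to 31.9%). By subunit, upstream shares in psh1 pGAL-3Flag-CSE4 were 92.1% for the large subunit and 89.3% for the small, and downstream shares in pGAL-3Flag-CSE4 were 63.2% (51.9 to 73.1%) and 75% (62.3 to 84.5%), with intervals that overlapped.

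The A and B copies of a pair were often unlike in upstream and downstream coverage. Their coding sequences were 78.9% to 99.4% identical, with a median of 93.2%, but these windows lie outside them. Pairs were not compared with RP genes that are not paralogs. Upstream in psh1 pGAL-3Flag-CSE4, both copies had a ChIP peak in 47 of 57 pairs, 1 copy had it in 8, and neither in 2. The difference in upstream coverage within a pair had a median of 14.6 percentage points. Across the 57 pairs, which share libraries and were not independent samples, Pearson's r between A and B coverage was 0.16 upstream and 0.17 downstream. In pGAL-3Flag-CSE4, downstream peaks were present at both copies in 24 pairs, at 1 copy in 30 and at neither in 3.

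Among the pairs furthest apart upstream in psh1 pGAL-3Flag-CSE4, the B copy was the higher in RPL4 (62.2% against 19.4% in the A copy), RPL40 (62.4% against 20.8%), RPL22 (42.0% against 2.80%) and RPL21 (59.4% against 22.4%). All of these encode large-subunit proteins. Downstream the pair furthest apart was RPS28, with 58.4% at RPS28A and 0% at RPS28B, while upstream these copies were close, at 37.0% and 40.4% in psh1 pGAL-3Flag-CSE4 and 12.2% and 10.2% in pGAL-3Flag-CSE4.

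**Figure D5:**
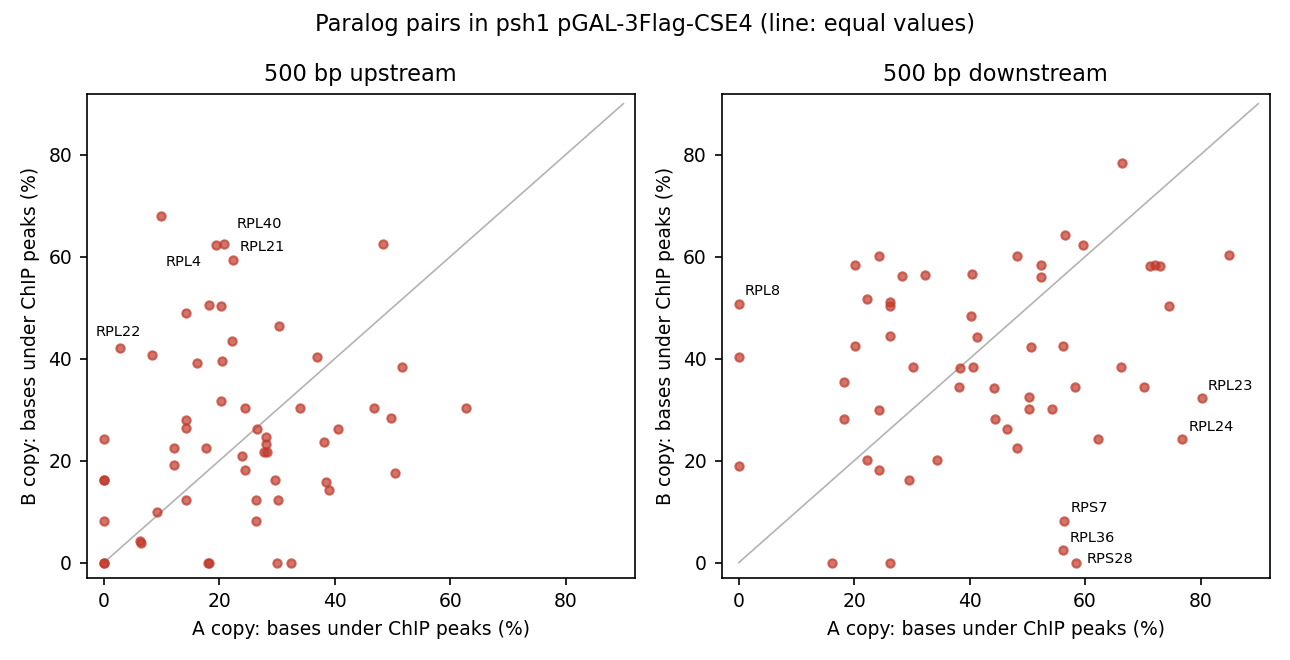
Percent of bases under psh1 pGAL-3Flag-CSE4 ChIP peaks in the B copy (vertical axis) against the A copy (horizontal axis) for the 57 paralog pairs, upstream on the left and downstream on the right, where each point is a pair and the line marks equal values. Points scatter widely around the line, with RPL22 at 42.0% for the B copy and 2.80% for the A copy upstream.

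Other genes of the translation machinery were counted in lists of known function. Of 34 translation factor genes, which encode the proteins that act with the ribosome, 94.1% had a downstream ChIP peak in psh1 pGAL-3Flag-CSE4 and 67.6% in pGAL-3Flag-CSE4, near the RP shares of 94.9% and 68.6%. In the gene 61.8% and 5.88% of the factors had a peak, against 74.8% and 22.0% of all protein-coding genes. Upstream 97.1% and 41.2% had one, near the 94.2% and 49.1% of all protein-coding genes. Of 78 ribosome assembly genes, 91.0% had a peak in the gene in psh1 pGAL-3Flag-CSE4 and 30.8% in pGAL-3Flag-CSE4, and 44.9% had one upstream in pGAL-3Flag-CSE4. Their downstream shares, 94.9% and 60.3%, were near those of the RP genes. The 74 nuclear genes for mitochondrial ribosomal proteins had a peak upstream in 54.1%, in the gene in 39.2% and downstream in 33.8% in pGAL-3Flag-CSE4, close to or above the shares of all protein-coding genes upstream and in the gene and below them downstream.

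The 12 genes listed as regulators of RP genes all had upstream and downstream peaks in psh1 pGAL-3Flag-CSE4. The shares over all protein-coding genes in that strain were 94.2% and 79.4%, so the upstream count was near the background. In pGAL-3Flag-CSE4, 3 of the 12 had an upstream peak, namely ABF1, DOT6 and FHL1, and 9 had a downstream peak, against 49.1% and 41.3% of all protein-coding genes. FHL1, whose product is the forkhead factor that acts with Ifh1 at RP promoters, had 66.8% of its upstream window under peaks in psh1 pGAL-3Flag-CSE4 and 18.2% in pGAL-3Flag-CSE4. RAP1 had 57.8% in psh1 pGAL-3Flag-CSE4 and 0% in pGAL-3Flag-CSE4.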

How the data were processed

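Input and Flag ChIP libraries of 4 strains were sequenced, 1 library of each type per strain, and groups were taken from the deposited labels. Per the submitters' processing notes, the tools included CASAVA, BWA and SAMtools and the build was sacCer3. The authors kept paired fragments of mononucleosome size with a high mapping score and called peaks with DANPOS2. For ChIP input coverage was taken off, values were scaled by centromere coverage within each strain, rDNA coverage was set to 0, and the authors used a single height threshold for all strains. The deposited files hold peak starts and ends in bp. Their score column was 0 in every line, so no signal, fold, depth or p-value could be used.

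Peak positions were counted from 1 and set on the R64 annotation of RefSeq, the sequence of sacCer3, with Python 3.11.15, numpy 2.4.6 and scipy 1.17.1 (figures: matplotlib 3.10.9, pair alignments: Biopython 1.88). Genes of like length had spans between the 10th and 90th percentile of the RP spans. Window counts were tested on simulated data. Precision is a 95% Wilson interval and covers counting error only. The members, lists, windows and alternatives were chosen with earlier results of these data known. Genes were named by a rule: those with ChIP peaks without the GAL copy, the 6 highest and 6 lowest by upstream coverage, the 6 highest by gene coverage, the 6 pairs furthest apart upstream, and the stalk genes. Some of these are not reported here. Alternatives changed 1 choice at a time: 250 bp windows, only peaks centred in the window, an overlap of at least 50 bp, peaks at least 71 bp wide, windows ended at the next gene, and gene sets without repeats, chromosome XI or pericentromeres (10 kb), or of like length.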

Additional observations from a re-analysis of the deposited data

How the results depend on the processing

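Of 112 alternative values for 12 shares and differences, 86 stayed within the interval of the reported value, 26 moved beyond it and 0 reversed. All 62 alternative differences between RP genes and other genes kept their sign. The interval of the upstream difference in psh1 pGAL-3Flag-CSE4, -3.03 percentage points (-8.98 to 0.70), included 0, while 7 of its 11 alternatives had intervals below 0. No paired analysis was possible because there was a single ChIP and a single input library per strain. Windows of 250 bp and windows ended at the next gene do not change the gene window and gave no value there. The lists hold no peak height or depth, so no stricter threshold than width could be tried. The paper gives read numbers for each library, which differed, and the counts here were not adjusted for them. The cause of the shifts was not tested beyond the construction of each alternative.

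With windows of 250 bp, the share of RP genes with a ChIP peak was 82.5% upstream and 88.3% downstream in psh1 pGAL-3Flag-CSE4 and 2.19% upstream in pGAL-3Flag-CSE4. With peaks at least 71 bp wide the shares were 82.5% upstream and 24.1% in the gene in psh1 pGAL-3Flag-CSE4, and 8.03% upstream and 56.2% downstream in pGAL-3Flag-CSE4. With an overlap of at least 50 bp they were 81.8% upstream and 17.5% in the gene in psh1 pGAL-3Flag-CSE4, and with peak centres inside the gene 25.5%. The difference from other genes in psh1 pGAL-3Flag-CSE4 was -10.2 points upstream and 19.5 points downstream at 50 bp of overlap, and -10.1 upstream, -43.5 in the gene and 21.8 downstream for peaks of 71 bp. It was -43.4 in the gene without repeats, against -35.5 reported, and downstream 19.4 for windows ended at the next gene and 19.0 against genes of like length, against 15.8 reported. In pGAL-3Flag-CSE4 the upstream difference of -36.8 became -27.7 at 50 bp of overlap and -25.0 for peaks of 71 bp. The gene difference of -22.5 became -13.2 with peak centres, -8.49 at 50 bp, -13.2 at 71 bp, -24 without repeats, and -25.1 and -26.5 against genes of like length by the wider and narrower range.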
